A study of Rattus norvegicus with 12 samples.

Results

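The cervix of 12 rats was examined for 10 genes known from skeletal muscle: Acta1, Tnnc2, Tnnt3, Tnni2, Ckm, Mylpf, Unc45b, Chrnd, Ucp3 and Casq1. They were found on the arrays by gene name, as 10 of 26612 gene names and 11 of 30367 probes, since Casq1 had 2 probes. The genes had been picked for their values in the comparison of late pregnant with nonpregnant whole cervix, so that comparison is described here without a test. The question was whether these genes moved together, and whether Chrnd and Ucp3 went apart from the rest.

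The cervix of Sprague Dawley rats was compared between nonpregnant (NP) animals in proestrus and pregnant animals on day 21 after breeding (D21). All rats were perfused with saline, and the cervix was trimmed and dispersed with collagenase. Cells of 3 NP and 3 D21 rats were frozen as they were and are called whole cervix. Cells of a further 3 NP and 3 D21 rats were first passed over magnetic beads with the ED1 antibody to remove macrophages (Mφ) and are called Mφ-depleted cervix. Each rat had 1 array, so whole and Mφ-depleted cells came from different animals, and every comparison was 3 rats against 3. On the 12 arrays, 44.9% to 61.8% of the probes were well above background, which is the scanner software's own call for a spot brighter than its surroundings. Values are log2 intensities from which each array's own 75th percentile was taken, so that 0 is the level of that percentile and -1 is 2-fold below it. The RNA was of mixed cells, so fewer cells of a type cannot be told apart from less RNA per cell.

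Skeletal muscle shortens when thin filaments of actin slide along thick filaments of myosin. Calcium, released from a store in which calsequestrin (Casq1) binds it, reaches troponin on the thin filament. Troponin has a calcium-binding subunit (Tnnc2 in fast fibres), an inhibitory subunit (Tnni2) and a tropomyosin-binding subunit (Tnnt3), and the actin itself is encoded by Acta1. Mylpf encodes the regulatory light chain of fast myosin, Unc45b a chaperone that helps myosin fold, and Ckm the creatine kinase that restores ATP. Chrnd encodes the delta subunit of the muscle acetylcholine receptor, and Ucp3 an uncoupling protein of the inner mitochondrial membrane. The cervix is built mainly of collagen-rich stroma, smooth muscle and epithelium, and none of these is striated muscle.

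The probes are 60 bases long. For some of the genes the results turn on they are given 5' to 3' in the sense of the transcript, with their place in the rat genome (rn4) as the array files state it. The Tnnc2 probe is shown with that of Tnnc1, the troponin C of slow and heart muscle, because in an ungapped alignment 48 of 59 bases matched, and the capitals mark the longest run they share, of 17 bases. The Tnnt3, Chrnd and Acta1 probes shared no run of 14 bases with another probe of the array. Only probes were compared, not whole transcripts. Pairing of a probe with transcripts of related genes, such as other actins, was therefore not tested.
Tnnt3 (chr1:202758664-202758723, plus strand): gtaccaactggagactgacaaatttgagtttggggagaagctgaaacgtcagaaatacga
Chrnd (chr9:86003618-86003677, plus strand): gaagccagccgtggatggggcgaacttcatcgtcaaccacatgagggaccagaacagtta
Tnnc2 (chr3:155807460-155807519, minus strand): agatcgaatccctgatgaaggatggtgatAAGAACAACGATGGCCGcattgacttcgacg
Tnnc1 (chr16:6642153-6642212, plus strand): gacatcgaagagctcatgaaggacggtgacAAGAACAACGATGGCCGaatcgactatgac

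The stretches of 250 bases that end at the base before the gene's start are shown for Acta1 and Tnnc2, which were far higher in whole than in depleted NP cells, and for Chrnd and Ucp3, which were higher in D21 than in NP whole cervix. They are from RefSeq on the GRCr8 build, in the direction of the gene. Capitals mark 3 motifs searched on both strands: CANNTG (the E-box), TATAAA, and the CArG box, the site of serum response factor.
Acta1 (chr19:68784195-68784444, minus strand): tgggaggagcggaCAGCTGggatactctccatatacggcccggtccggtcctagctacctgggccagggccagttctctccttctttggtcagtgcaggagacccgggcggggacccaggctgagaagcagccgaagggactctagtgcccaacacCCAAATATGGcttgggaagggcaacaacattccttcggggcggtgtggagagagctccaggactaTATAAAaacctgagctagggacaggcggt
Tnnc2 (chr3:173935340-173935589, minus strand): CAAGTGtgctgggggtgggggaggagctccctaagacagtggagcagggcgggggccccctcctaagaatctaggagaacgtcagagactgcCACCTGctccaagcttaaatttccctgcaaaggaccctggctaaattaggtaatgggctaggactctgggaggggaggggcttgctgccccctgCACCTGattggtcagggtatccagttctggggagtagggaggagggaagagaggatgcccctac
Chrnd (chr9:95310066-95310315, plus strand): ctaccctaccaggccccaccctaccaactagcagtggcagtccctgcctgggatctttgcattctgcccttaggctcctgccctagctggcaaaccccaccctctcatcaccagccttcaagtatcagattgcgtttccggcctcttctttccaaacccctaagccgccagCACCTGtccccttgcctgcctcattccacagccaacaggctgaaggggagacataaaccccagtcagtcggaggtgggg
Ucp3 (chr1:164227660-164227909, plus strand): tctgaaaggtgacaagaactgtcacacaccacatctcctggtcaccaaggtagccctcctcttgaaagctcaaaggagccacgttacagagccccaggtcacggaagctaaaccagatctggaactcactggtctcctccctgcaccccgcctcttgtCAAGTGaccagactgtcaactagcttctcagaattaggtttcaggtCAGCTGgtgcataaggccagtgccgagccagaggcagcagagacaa
RefSeq stretches were matched for 9 of the 10 genes. CANNTG was in 9 of these 9, and in 65.5% of the 33469 stretches of that length in the table. TATAAA was in 2 of the 9 (Acta1 and Tnni2), against 12.9% of all. The CArG box was in 1 of the 9, Acta1, with its first base 94 bases before the start, against 1.5% of all. In this window neither Chrnd nor Ucp3 held TATAAA or a CArG box. These are matches of letters only.

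The label of the genes as skeletal muscle was set against the muscle genes that define a fibre. Of the fast sarcomere genes on the array, 0 of 8 could be tested in any comparison. The fast myosin heavy chains Myh1, Myh2 and Myh4 and the giant spring protein Ttn were well above background on none of the 12 arrays, and the same held for the slow myosin heavy chain Myh7. The fast light chain Myl1 was well above background on 1 NP whole array and on none of the others. The muscle calcium pump Atp2a1 and the muscle regulators Myod1 and Pax7 were also not well above background on any array. The 10 genes are therefore called here by their names or as the muscle genes, since the myosins that define a skeletal fibre were not measured above background beside them. Among the members themselves, Mylpf reached that mark on 5 arrays and Ckm on 3, neither on all 3 arrays of any group, while Tnni2 reached it on 12, and Acta1, Tnnc2 and Tnnt3 on 11 each.

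In whole cervix, 8 of the 10 genes were lower on average in D21 than in NP rats and 2, Chrnd and Ucp3, were higher. The lower genes ran from the troponins and the myosin chaperone to the calcium store, and the groups did not overlap for 6 of them. Acta1 and Mylpf overlapped. Both higher genes had groups that did not overlap. With normexp background correction and with quantile normalization 7 were lower and 3 higher, and the gene that turned was one of those too dim to be tested. Over all 14063 genes tested in this comparison, groups failed to overlap in 24.2% with the lower mean in D21 and in 20% with the higher mean. By the rule used for calls below, an unadjusted p under 0.01 with a change of at least 2-fold, 3.09% were lower and 5.38% higher. These shares are given as background only, since the genes had been picked on this contrast. The median difference of the 10 genes was -2.13 (log2), beside -0.08 over all genes tested. With normexp the differences of Tnnt3, Unc45b and Casq1 given below shrank to -0.26, -1.20 and -1.20.

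**Figure D1:**
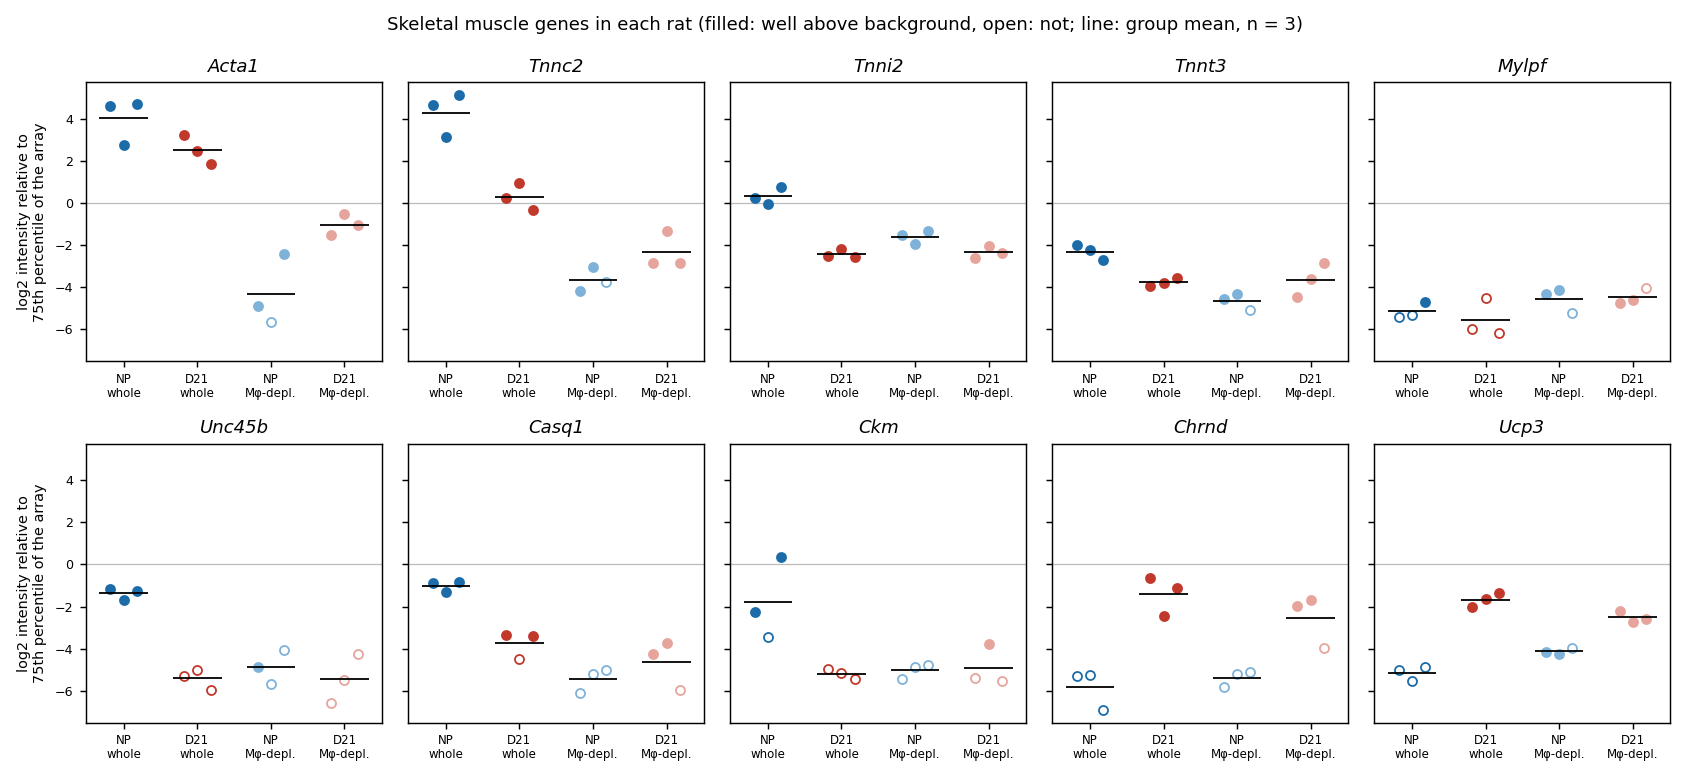
Log2 intensity above or below the array's 75th percentile for the 10 muscle genes, with 1 point for each rat in the 4 groups and a line at the group mean. Acta1, Tnnc2, Casq1 and Unc45b sat highest in NP whole cervix on average, while Chrnd and Ucp3 sat highest in D21 whole cervix. Open points were not well above background.

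Of the thin filament genes, Tnnc2 differed most. It stood at 4.64, 3.12 and 5.13 in NP whole rats 8, 9 and 10, and at 0.23, 0.95 and -0.31 in D21 whole rats 5, 6 and 7. Every NP rat was above every D21 rat, by a mean difference of -4.01 (16.1-fold). Acta1 stood at 4.63, 2.76 and 4.70 in the NP rats and at 3.24, 2.46 and 1.84 in the D21 rats. NP rat 9 lay below D21 rat 5, so the groups overlapped, and the mean difference was -1.52 (SE 0.78).

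The inhibitory subunit Tnni2 was tight within each group. Its values were 0.25, -0.02 and 0.76 in the NP rats and -2.50, -2.20 and -2.55 in the D21 rats, a difference of -2.75 with no overlap. Tnnt3, the tropomyosin-binding subunit, stood at -2.01, -2.24 and -2.70 in the NP rats and at -3.95, -3.78 and -3.58 in the D21 rats. Its difference was the smallest of these 3 troponin genes at -1.46, again with no overlap. The 3 subunits of troponin thus differed by unlike amounts between the same 6 rats.

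Unc45b, the myosin chaperone, stood at -1.15, -1.71 and -1.24 in the NP rats and was not well above background in any D21 rat. A dim group of that kind gives only a bound, taken against the lowest signal that was well above background on each array. Unc45b was at least 7.50-fold lower in D21 whole cervix. Mylpf, the fast myosin light chain, stood at -5.41, -5.32 and -4.68 in NP and at -5.97, -4.52 and -6.19 in D21 rats, and only NP rat 10 was well above background. For that light chain no difference could be measured at this brightness.

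Casq1, the calcium-binding protein of the store, stood at -0.89, -1.31 and -0.83 in the NP rats and at -3.34, -4.49 and -3.40 in the D21 rats, a difference of -2.73 with no overlap. Its other probe, elsewhere in the same gene, differed by -2.09, also with no overlap. Ckm varied most among the NP rats. It stood at -2.26, -3.46 and 0.34 in rats 8, 9 and 10, with rat 9 not well above background, and no D21 rat was well above background. The bound for Ckm was at least 5.57-fold lower in D21.

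Chrnd and Ucp3 ran the other way. Chrnd stood at -0.66, -2.47 and -1.14 in the D21 whole rats and was not well above background in any NP whole rat, where its signals were -5.32, -5.26 and -6.92. It was at least 6.05-fold higher in D21. Ucp3 stood at -2.01, -1.63 and -1.37 in the D21 rats and was not well above background in the NP rats either, at -5.03, -5.53 and -4.87. It was at least 5.04-fold higher in D21. Neither gene overlapped between the groups. These bounds hold for the scale used here: with normexp the log2 differences were 1.56 for Chrnd and 1.47 for Ucp3, which are smaller changes than the bounds.

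Within NP whole cervix the muscle genes other than Chrnd and Ucp3 tended to rank the rats alike, which is a description of 3 animals. Rat 10 had the highest value for 6 of these 8 genes and rat 9 the lowest for 6. The range over the 3 rats was 1.94 for Acta1, 2.01 for Tnnc2 and 3.80 for Ckm, but only 0.56 for Unc45b and 0.49 for Casq1. The array of rat 10 was on the slide of the 3 D21 whole arrays, and those of rats 8 and 9 were on another. Against rat 10 alone, on that slide, the D21 mean differed by -4.84 for Tnnc2, -2.19 for Acta1, -3.18 for Tnni2, 5.49 for Chrnd and 3.20 for Ucp3. Rat 10 lay beyond every D21 whole rat for each of these genes, so the directions were already set. They give no check on an effect of the slide.

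The likeness of the genes was also measured over all 12 rats, as the root mean square difference of 2 genes' values after each was centred on its own mean. The 8 genes well above background throughout at least 1 group were used. Chrnd and Ucp3 differed from each other by 1.03. Tnni2 and Unc45b were the closest pair at 0.82, and Acta1 and Tnnc2 differed by 1.47. Chrnd differed by 4.05 from Tnnc2 and 3.70 from Acta1, but by 2.41 from Tnnt3, and Ucp3 differed by 1.93 from Tnnt3. Acta1 differed by 3.02 from Tnni2 and 2.78 from Tnnt3. The genes other than Chrnd and Ucp3 were thus not all close to each other. These distances contain the values that picked the genes, and values that were not well above background.

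Mφ-depleted cervix came from other rats that had no part in picking the genes, so D21 was tested against NP there. The spread between rats in that test was pooled over all groups, the whole cervix arrays included. In Mφ-depleted cells the muscle genes did not go down together. By the brightest probe of each, 8 of the 10 had a higher mean in D21 and 2 a lower one. In all, 5 were bright enough to be tested, and 2 of the 5 passed the rule, Acta1 and Ucp3, both higher in D21. Only Tnni2 was well above background on every array compared, and the other 4 entered the test through the D21 rats, in which they were higher, so the count is no support for a shared direction. When every array had to be well above background, 1 gene could be tested and 0 passed. Among all 13413 genes tested, 7.52% passed it (5.45% higher and 2.07% lower), and 4.6% had an adjusted p under 0.05. Groups did not overlap for 4 members with a higher and 1 with a lower mean in D21, beside 9.49% and 7.53% of all genes. The median of the 10 genes was 0.91, beside 0.02 over all genes tested.

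Acta1 stood at -4.91, -5.66 and -2.41 in Mφ-depleted NP rats 5, 6 and 7 and at -1.52, -0.52 and -1.06 in D21 rats 1, 2 and 4. All D21 rats were above all NP rats, and NP rat 6 was not well above background. The difference was 3.29 (SE 0.77), with an adjusted p of 0.0354 by limma with Benjamini-Hochberg adjustment over all genes. The sign was opposite to that in whole cervix. Leaving out 1 of the 6 rats at a time kept Acta1 within the rule, at differences from 2.63 without NP rat 6 to 4.25 without NP rat 7, but its adjusted p by limma then ran from 0.00469 to 0.146. Under the methods' t-test it no longer passed.

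Ucp3 stood at -4.16, -4.25 and -3.96 in the Mφ-depleted NP rats and at -2.22, -2.71 and -2.59 in the D21 rats, with narrow groups that did not overlap. Its difference was 1.62 (SE 0.26), with an adjusted p of 0.00462 by limma. It was 1.49 on the first slide, which held D21 rat 2 with NP rats 5 and 6, and 1.37 on the third, which held D21 rat 4 with NP rat 7. For Acta1 the same within-slide differences were 4.77 and 1.35. With normexp background correction Ucp3 differed by 1.24 and no longer passed. Ucp3 thus had the higher mean in D21 in both kinds of cell preparation. The whole cervix values had served to pick it, so they add no support to those of the Mφ-depleted cells.

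Chrnd stood at -1.95, -1.69 and -3.98 in the Mφ-depleted D21 rats and at -5.82, -5.21 and -5.10 in the NP rats. The groups did not overlap, but D21 rat 4 and all NP rats were not well above background, so the gene was not tested. It was at least 3.67-fold higher in D21. Without D21 rat 4, Chrnd and Casq1 also entered the test and the count that passed was 4 in place of 2. Chrnd and the brighter Casq1 probe were not well above background in any NP rat. They entered only because a dim D21 array was gone, so neither is taken as a measured change.

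The 3 troponin genes among the members did not pass in Mφ-depleted cervix. Tnnc2 differed by 1.32 between D21 and NP, with a 95% confidence interval from 0.06 to 2.59 and an adjusted p of 0.214 by limma. Tnnt3 differed by 1.02 (interval 0.20 to 1.85, adjusted p = 0.150 by limma). It passed the rule without D21 rat 1 and with slide as a block, at 1.44, and also with scan day as a block. Tnni2 went the other way at -0.76 (interval -1.36 to -0.15, adjusted p = 0.145 by limma), with a lower mean in D21 in both preparations. Casq1, Ckm, Mylpf and Unc45b were too dim to be tested. All 4 had groups that overlapped. The other Casq1 probe had the lower mean in D21, at -5.30 against -4.71 in NP, so the direction of Casq1 differed between its probes.

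**Figure D2:**
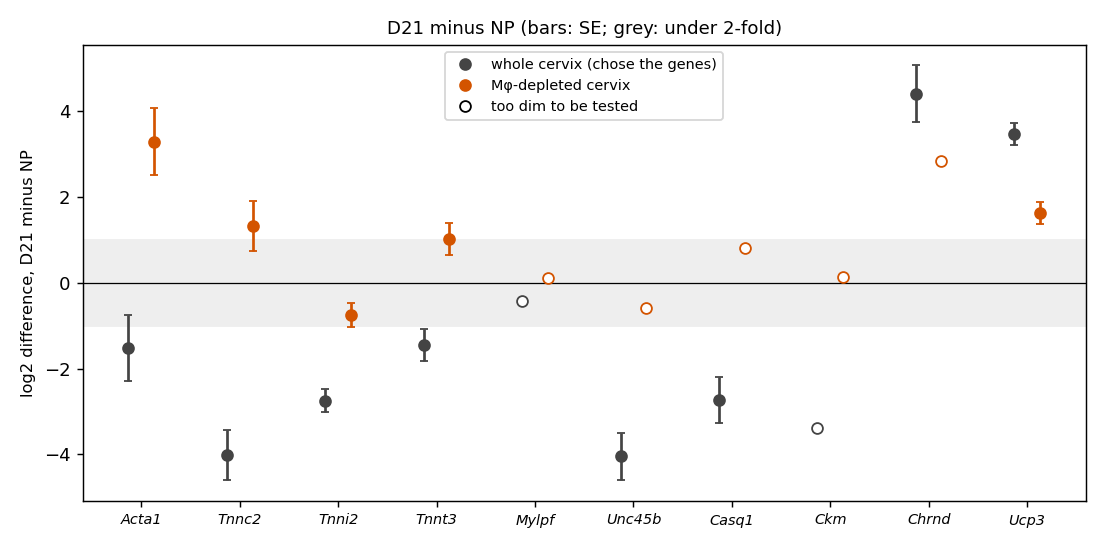
Log2 difference between D21 and NP for each gene, in whole cervix (grey points, the values by which the genes were picked) and in Mφ-depleted cervix (orange points). Bars are standard errors, open points were too dim to be tested, and the grey band is a change under 2-fold. Acta1 lay at -1.52 in whole and 3.29 in Mφ-depleted cervix, while Ucp3 lay above 0 in both.

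Whole was next compared with Mφ-depleted cervix in each condition. The whole arrays had served to pick the genes, so these differences are given without p-values. In NP rats 6 muscle genes could be tested, and all 6 had the higher level in whole cervix by the rule, where 13.6% of 13419 genes tested were higher by that rule and 24.4% passed in either direction. All but Tnni2 entered the test through the NP whole arrays, in which they were high, so this count is a description. Acta1 was higher by 8.36 (SE 0.78) and Tnnc2 by 7.95 (SE 0.58), differences of 328-fold and 247-fold. Casq1 was at least 10.6-fold higher by its brighter probe. Its other probe had means of -1.64 in NP whole and -4.71 in Mφ-depleted NP cervix, a smaller difference, so the bound holds for the brighter probe only. Tnni2 was higher by 1.92 and Tnnt3 by 2.34. Unc45b differed by 3.50, but only 1 of the 3 Mφ-depleted NP rats was well above background. With normexp Tnnt3 at 1.02 and Unc45b at 1.82 no longer passed. Ckm was not tested and was at least 5.97-fold higher. Chrnd and Ucp3 were not well above background in NP whole cervix, and Ucp3 reached that mark in 2 of the 3 Mφ-depleted NP rats.

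On the third slide, which held NP whole rats 8 and 9 with Mφ-depleted NP rat 7, the same genes differed by 6.11 for Acta1, 7.62 for Tnnc2, 3.92 for Casq1, 2.65 for Unc45b, 2.97 for Tnnt3 and 1.43 for Tnni2. Leaving out any 1 rat left the same 6 genes past the rule, and Ckm joined them without NP whole rat 9.

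In D21 rats 2 of 6 testable genes passed, Acta1 at 3.55 and Tnnc2 at 2.62, where 10% of 14262 genes tested were higher by the rule and 17.7% passed in either direction (7.71% were lower). Tnni2 differed by -0.07 (interval -0.68 to 0.54) and Tnnt3 by -0.14 (interval -0.97 to 0.70). Ucp3 was higher in whole D21 cervix by 0.84 (interval 0.27 to 1.41), which is under 2-fold, and Chrnd by 1.12 (interval -0.34 to 2.58). No slide held both D21 whole and Mφ-depleted D21 arrays. With slide as a block 0 of the 6 passed, with Acta1 at 1.59 and Tnnc2 at 1.48. Acta1 also no longer passed with scan day as the block, at 2.60, nor Tnnc2 with normexp, at 1.11, or by the methods' t-test.

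**Figure D3:**
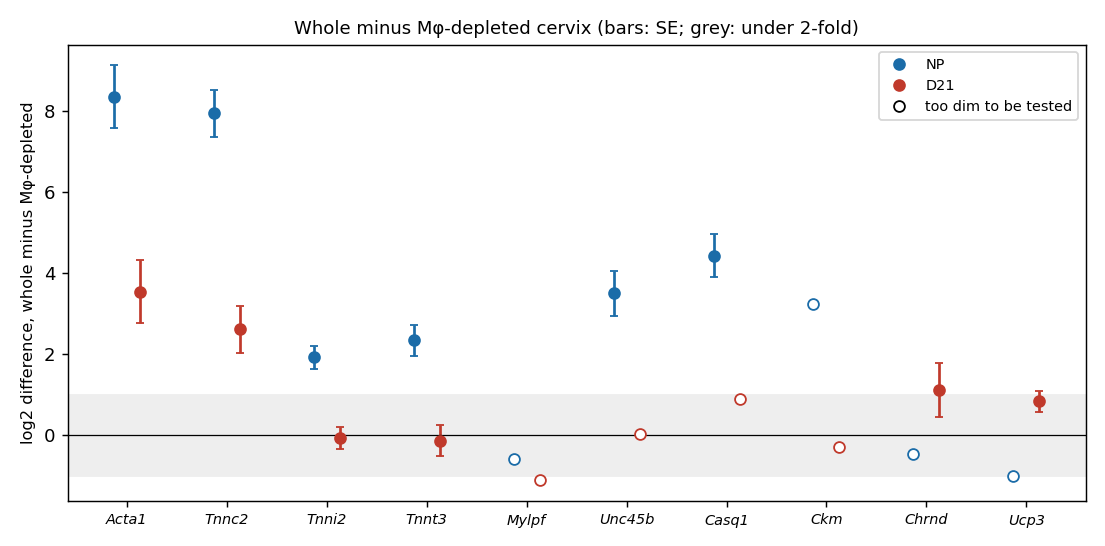
Log2 difference between whole and Mφ-depleted cervix for each gene in NP rats (blue points) and D21 rats (red points), with standard errors as bars and open points for genes too dim to be tested. In NP rats Acta1 and Tnnc2 lay near 8 and Tnni2 at 1.92, and in D21 rats Tnni2 and Tnnt3 lay close to 0.

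The difference of the 2 differences was then taken (whole minus Mφ-depleted in D21, less the same in NP). Of the 8 testable genes 7 passed the rule, where 7.44% of all 14572 genes tested passed (2.44% above 0 and 5% below). It contains the contrast that picked the genes and is a description. Tnnc2 had -5.33, Acta1 -4.81, Tnnt3 -2.48 and Tnni2 -1.99. For Casq1, Unc45b, Ucp3 and Chrnd at least 1 of the 4 groups had no rat well above background, so the size of the term is not a measured amount. With normexp 4 passed, Tnnc2, Acta1, Tnni2 and Casq1.

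Markers of other cell types moved with the same groups. The summed level of 10 smooth muscle genes (among them Acta2, Actg2 and Myh11) ran from 8.77 to 9.42 in NP whole cervix and from 8.19 to 8.64 in D21 whole cervix. It ran from 4.42 to 4.84 in Mφ-depleted NP and from 5.48 to 7.32 in Mφ-depleted D21 cervix. Thus it was lowest in the same group as Acta1 and Tnnc2 and highest in the same group. This was not particular to smooth muscle. The fibroblast sum given below also had its lowest range in Mφ-depleted NP cervix. Its highest was in NP whole cervix, overlapping D21 whole cervix, and 10 of 10 fibroblast genes passed as higher in whole than in Mφ-depleted NP cervix. In Mφ-depleted cervix 6 of the 8 testable smooth muscle genes passed the rule with the higher level in D21, and in NP rats 10 of 10 passed with the higher level in whole cervix. In whole cervix all 10 had a lower mean in D21, and 4 of 10 passed. Acta2, Actg2, Myh11 and Des were well above background on all 12 arrays.

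The summed level of 10 fibroblast genes ran from 9.17 to 9.44 in NP whole, 8.82 to 9.40 in D21 whole, 4.11 to 5.91 in Mφ-depleted NP and 8.32 to 8.88 in Mφ-depleted D21 cervix. That of 10 epithelial genes was 6.97 to 8.64 in NP whole and 8.81 to 9.91 in Mφ-depleted NP cervix. In whole cervix 7 of 10 epithelial genes passed with the higher level in D21. The 10 macrophage genes summed to 3.44 to 4.17 in NP whole and 2.09 to 3.83 in Mφ-depleted NP cervix. Of the 8 that could be tested 6 passed with the higher level in NP whole cervix, with a median difference of 4.24, while Cd14 and Cd68 differed by -0.23 and 0.54 without passing. Adgre1 was well above background on 0 Mφ-depleted arrays. The part of these cell types in the values of the 10 muscle genes was not tested. Of 5 heart muscle genes that skeletal muscle lacks, Tnni3 and Myl7 were well above background on no array, and only Tnnt2, the troponin T of heart, could be tested.

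**Figure D4:**
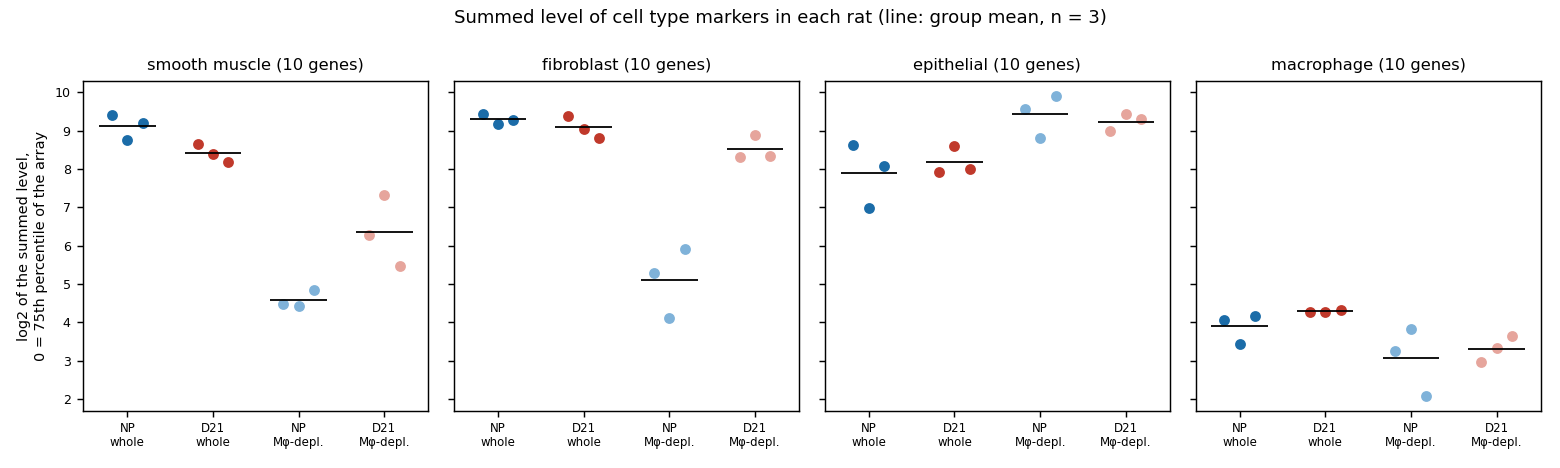
Summed level of 10 marker genes of smooth muscle, fibroblasts, epithelium and macrophages in each rat, as log2 above or below the array's 75th percentile, with a line at the group mean. Smooth muscle markers lay between 8.19 and 9.42 in whole cervix and between 4.42 and 7.32 in Mφ-depleted cervix.

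A list of 130 other muscle genes was examined, of which 121 had a probe and 32 were well above background on no array. In whole cervix 52 of them could be tested, and 6 passed as higher and 6 as lower in D21, with a median of -0.20. Of all genes, 8.47% passed in either direction. The other muscle genes that passed were thus split evenly between the directions.

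The lower ones were mostly of energy supply and structure. Slc2a4, the insulin-responsive glucose transporter, differed by -2.45 (SE 0.48) and Eno3, the muscle enolase, by -1.87 (SE 0.38), with adjusted p-values of 0.018 and 0.0203 by limma. Pygm, the muscle glycogen phosphorylase, differed by -1.25 and Myom1, a protein of the M band, by -2.27. Lrp4, the receptor for agrin, differed by -1.35 and the acetylcholine receptor alpha subunit Chrna1 by -1.43. No D21 whole array had Chrna1 well above background, so its bound was at least 1.86-fold lower.

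Chrna1 and Chrnd are subunits of 1 receptor in muscle, and here they ran in opposite directions in whole cervix. Chrna1 did not pass by limma's adjusted p, the methods' t-test, normexp or quantile normalization. In Mφ-depleted cervix Chrna1 stood at -2.63, -2.11 and -3.70 in D21 rats 1, 2 and 4. It stood at -4.44, -3.46 and -3.44 in NP rats 5, 6 and 7, so there it was not lower in D21 as a group. The beta subunit Chrnb1 differed by 1.20 without passing (adjusted p = 0.16 by limma). The gamma subunit Chrng was well above background on no array, and the epsilon subunit Chrne was too dim to be tested. In the acetylcholine receptor and junction list as a whole, 2 of 7 testable genes passed as lower in D21 and 0 as higher.

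Of the uncoupling and fatty acid oxidation genes, 5 of 18 testable passed as higher in D21 whole cervix and 0 as lower, with a median of 0.58. The direction was that of Ucp3. Of all genes, 5.38% passed as higher and 3.09% as lower. By limma's adjusted p under 0.05 alone, 4 of the 18 were higher and 1, Slc25a4, was lower. Among the 5 that passed the rule, Angptl4, an inhibitor of lipoprotein lipase, differed by 2.78 (SE 0.46). Ucp2, the broadly expressed uncoupling protein, differed by 2.42 (SE 0.43). Cpt1b and Cpt1a, which carry fatty acids toward the mitochondrion, differed by 1.50 and 1.37. Fbp2, the muscle fructose bisphosphatase of the energy list, was also higher at 2.57.

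The other lists had few testable genes and none that passed in this comparison. Among the slow and developmental sarcomere genes, Actc1 differed by -1.01 and Myl2 by -1.28, with 0 of 3 passing. In the excitation-contraction list Sln differed by -1.85 and Jph2 by -1.43, with 0 of 2 passing. In the myogenic list Pax3 differed by 0.66, with 0 of 4 passing. Among the myosin chaperones and muscle ubiquitin ligases 0 of 7 passed, with Hsp90aa1 at -0.69 and Hsp90ab1 at -0.09.

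In Mφ-depleted cervix 44 of the other muscle genes could be tested, and 5 passed as higher and 1 as lower in D21, beside 7.52% of all genes. Cox8b, a cytochrome oxidase subunit of heart and muscle, differed by 3.34 (SE 0.70) and Hspb8, a small heat shock protein, by 1.82 (SE 0.28), with adjusted p-values of 0.0217 and 0.00366 by limma. Pvalb at 2.15 and Acadm at 1.41 were also higher, with adjusted p-values of 0.0531 and 0.0977 by limma. Lrp4 was lower by -1.49, the direction it had in whole cervix. The count fell to 2 without D21 rat 2 and to 3 without NP rat 5.

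Between whole and Mφ-depleted NP cervix 49 other muscle genes could be tested, and 12 passed as higher in whole cervix and 5 as lower, beside 13.6% and 10.8% of all genes. The small heat shock protein Hspb7 was higher by 6.46, Cox6a2, a muscle subunit of cytochrome oxidase, by at least 43.8-fold, and Sln, which restrains the calcium pump, by at least 7.33-fold. Hspb8 was higher by 4.74, Myl2 by 3.99, Slc2a4 by 3.82 and the slow troponin T Tnnt1 by at least 4.31-fold. Agrn, the organiser of the junction, was lower, with a difference of -2.37. In D21 rats 53 could be tested, with 7 passing as higher in whole cervix and 3 as lower, among them Hspb7 at 4.74, Tnnt1 at 2.57 and Cox6a2 at 2.19. That count fell to 6 without D21 whole rat 5 or without D21 whole rat 7.

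**Figure D5:**
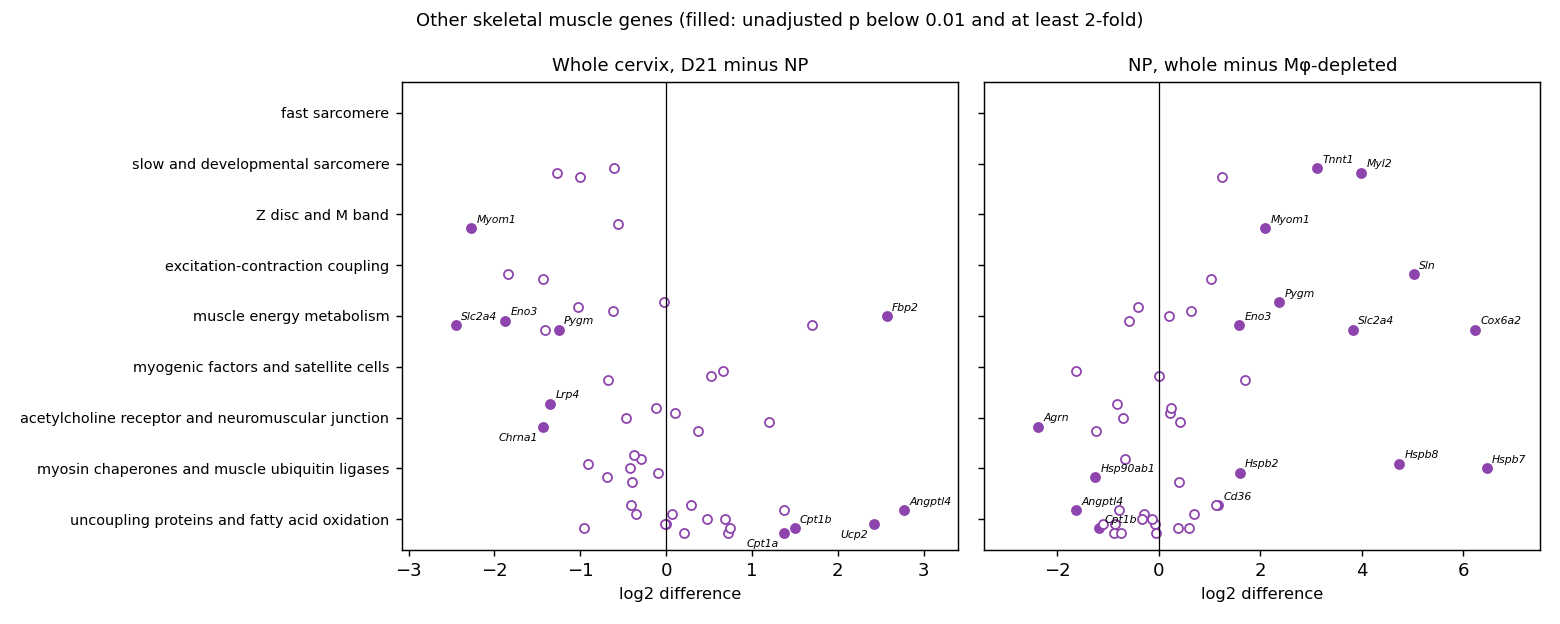
Log2 differences of other muscle genes that could be tested, by list, for D21 minus NP in whole cervix (left) and whole minus Mφ-depleted in NP rats (right). Filled points passed an unadjusted p of 0.01 with at least a 2-fold change, and not every gene counted in the text is drawn. Fatty acid genes such as Angptl4 (2.78) lay to the right of 0 in whole cervix, and no fast sarcomere gene could be tested.

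The genes with the most similar pattern over the 12 rats were then named, by the smallest root mean square difference of centred values among 14493 genes. Nearest to Chrnd were Atp6v1b1, a subunit of the vacuolar proton pump, at 0.66, Spmip3 at 0.77 and Cldn2, a tight junction claudin, at 0.82. Atp6v1b1 had group means of -5.09 in NP whole, -1.24 in D21 whole, -4.35 in Mφ-depleted NP and -1.57 in Mφ-depleted D21 cervix. Nearest to Ucp3 were a transcript known only by an Ensembl identifier at 0.49, and Abo3 and Abo, blood group glycosyltransferases, at 0.50 and 0.51. Nearest to the mean of the other 6 genes that were bright enough were Ppp1r1a, a protein phosphatase inhibitor, at 0.44, Ctxn1 at 0.48 and RGD1565046 at 0.49. Ppp1r1a had group means of 0.77 in NP whole, -1.27 in D21 whole, -3.04 in Mφ-depleted NP and -2.49 in Mφ-depleted D21 cervix.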

How the data were processed

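RNA from the cervix of 12 rats was labelled with Cy3 and hybridised to 1-colour Agilent rat gene expression arrays. The scanner files deposited by the authors hold spot intensities from Agilent Feature Extraction 9.5.3.1 that are background-subtracted but not scaled between arrays. A table by the authors gives each intensity as a ratio to the 75th percentile of its array, and was used as an alternative only. Groups were taken from the sample labels, with 3 rats in each of 4 groups. Of 42877 spots other than controls, outlier spots were left out and spots of 1 probe averaged, giving 30367 probes. Gene names are those of the array, and 17328 probes were matched to RefSeq by accession, where Mylpf is now Myl11.

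Log2 intensities were set against the 75th percentile of each array. The brightest probe stood for a gene. Testing needed the gene to be called well above background in all 3 rats of one of the groups compared. A model with 4 group means was fitted over all 12 arrays in limma 3.58.1 (R 4.3.3), checked on simulated data. A gene passed at an unadjusted p under 0.01 with a change of at least 2-fold, which is the threshold of the study's methods, and Benjamini-Hochberg adjusted p-values over all genes tested are given beside it. The members and lists were chosen with earlier results of these data known. Named genes are the 10 members, up to 3 genes of each list with the largest difference among those that passed (where none passed, the 2 brightest tested), the 3 nearest patterns and the cell type markers. The other genes of a count of 5 or fewer, and those set against a label, were named after their values were seen. The alternatives were other thresholds, tests, background corrections, scalings, filters and probe rules, weights for arrays, a block for slide or for scan day, the ratios of the authors, and leaving out each rat. Array weights did not fully converge. The arrays were on 4 slides and 3 scan days, which the groups only partly share. The number of arrays limits the precision, with 3 rats a group. The p-values of limma rest on a spread between rats that is pooled over the 4 groups and drawn toward that of other genes. Some items of the lists and sequences are not reported here. Sequences were read with Python 3.11.15.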

Additional observations from a re-analysis of the deposited data

Results flagged for a closer look

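For 7 genes the term for the difference of the differences in the limma fit had an adjusted p under 0.05. Each value is the log2 difference of whole minus Mφ-depleted cervix in D21 less the same in NP. It was -5.333 for Tnnc2, -4.812 for Acta1, -3.531 for Casq1, -3.464 for Unc45b, -2.48 for Tnnt3, -1.991 for Tnni2 and 1.851 for Ucp3. The term contains the whole cervix values by which the genes were picked. Passing that mark is therefore not independent evidence, and the p-values of the single genes are not given. For Unc45b, Casq1 and Ucp3 the term rests on groups in which no rat was well above background, so its size is not a measured amount. The other Casq1 probe gave a smaller term of the same sign. With normexp background correction 4 of the 7 passed, and Ucp3 had 0.23.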

How the results depend on the processing

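In whole cervix none of the 8 testable members turned direction between D21 and NP under any alternative or with any rat left out, but with normexp Tnnt3, Unc45b and Casq1 were -0.26, -1.20 and -1.20 and no longer past the rule, and Chrnd and Ucp3 were 1.56 and 1.47. The median of the 10 was -1.11 with normexp background correction in place of -2.13, and -2.52 to -1.93 with each rat left out in turn. In Mφ-depleted cervix 2 members passed between D21 and NP, and the count was 1 by the methods' t-test, 0 by that test with adjustment, 1 with normexp, 0 when genes had to be well above background on every array, and 2 to 4 with a rat left out. Between whole and Mφ-depleted NP cervix 6 passed, 3 by the adjusted t-test, 4 with normexp, 1 with the filter on every array, and 6 to 7 with a rat left out. In D21 cervix 2 passed, 1 by the t-test, 0 by the adjusted t-test, 1 with normexp, 0 blocked by slide, 1 blocked by scan day, and 2 to 3 with a rat left out. For the difference of the differences 7 passed, 4 with normexp, 1 with the filter on every array, and 7 to 8 with a rat left out. Fewer genes are tested under the filter on every array. The causes of the other changes were not tested.

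Of the other muscle genes, 12 passed in whole cervix, 4 by the t-test, 0 by the adjusted t-test, 23 with array weights and 9 to 14 with a rat left out. In Mφ-depleted cervix 6 passed, 3 by limma's adjusted p, 2 by the t-test, 0 by the adjusted t-test, 2 with array weights, 3 blocked by slide, 3 blocked by scan day, and 2 to 9 with a rat left out. In NP cervix 17 passed, 9 by the t-test, 6 by the adjusted t-test, 11 with normexp, 7 with the filter on every array and 14 to 18 with a rat left out. In D21 cervix 10 passed, 5 by the t-test, 0 by the adjusted t-test, 5 with normexp, 5 with quantile normalization, 6 with the filter on every array, 3 with slide as a block and 6 to 15 with a rat left out.

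Directions turned only for differences that had not passed: Tnni2 between D21 and NP in Mφ-depleted cervix was 0.039 with normexp. Between whole and Mφ-depleted D21 cervix, Tnnt3 was 0.052 with the percentile taken over commonly detected probes, 0.13 with array weights, 0.051 blocked by slide and -0.55 to 0.26 with a rat left out (the highest without D21 rat 4). Tnni2 was 0.12 with that percentile and -0.21 to 0.096 with a rat left out (the highest without D21 rat 2). The Chrnd difference of differences was -0.25 with normexp. No paired analysis was possible because the groups compared share fewer than 2 rat numbers. Genes near background give bounds only.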

Other observations

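A single NP whole array was well above background for 13 other muscle genes, and 12 of these were on that of rat 10 (the other was Mybpc1 in rat 9). They included Tnnc1 at -0.85, Myom2 at -2.39, Ache at -2.51, Myoz2 at -2.76, Pvalb at -3.13 and Ldb3 at -3.28. Rat 10 was also the rat with the highest Ckm, at 0.34. Its array had 58.9% of probes well above background, against 48.3% and 52.6% for NP whole rats 8 and 9, and 72 of the 121 muscle genes on the lists reached that mark there, against 45 and 60. The part of the array's brightness in this was not tested.

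Tnnt2, the troponin T of heart, was well above background in every rat. It stood at 3.74, 2.63 and 3.70 in the NP whole rats, 1.36, 1.66 and 1.43 in the D21 whole rats, 4.33, 2.48 and 3.33 in the Mφ-depleted NP rats and 2.31, 2.93 and 2.33 in the Mφ-depleted D21 rats. D21 was lower than NP in whole cervix by -1.87 (SE 0.44), with an adjusted p of 0.0343 by limma, and the groups of whole cervix did not overlap. In Mφ-depleted cervix the difference was -0.86 and did not pass. NP whole and Mφ-depleted NP cervix had means of 3.36 and 3.38.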
